A study of Mus musculus with 2 samples.

Results

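Csf1r encodes the receptor for CSF1 (macrophage colony-stimulating factor, M-CSF), a tyrosine kinase of the plasma membrane. The probe sets examined here belong to Csf1r, its ligands and the proteins that act closest to it. The 10 genes were chosen for their known roles in this signalling, with earlier results of these arrays already known: the receptor Csf1r, its ligands Csf1 and Il34, the adaptors Grb2, Gab2 and Tyrobp, the phosphatidylinositol 3-kinase (PI3K) subunit gene Pik3r1, the phosphatase genes Inpp5d and Ptpn6, and the ubiquitin ligase gene Cbl. Every probe set annotated to 1 of these genes and to no other was taken, which gave 25 of the 45101 probe sets on the array and 10 of 18194 genes. A probe set is a group of short oligonucleotides that together report 1 signal for a transcript.

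When CSF1 or interleukin-34 binds, Csf1r dimerises and phosphorylates its own tyrosines. Grb2 and Gab2 then link it to Ras and PI3K, and Tyrobp (DAP12) carries an activation motif read by the kinase Syk. Ptpn6 (SHP-1) removes phosphate from tyrosines, Inpp5d (SHIP1) removes it from the lipid that PI3K makes, and Cbl attaches ubiquitin to the receptor, which is then internalised and degraded. In macrophages this pathway sustains survival, proliferation and migration.

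The study measured gene expression in peritoneal macrophages of 8-week-old male wild-type C57BL6 mice, elicited by an intraperitoneal injection of thioglycolate medium and collected by lavage 1 week later. The cells were cultured in medium with 10% FBS to 80% confluence and then kept for 12 h with 100 ng/ml CSF1 or without addition. Each condition gave 1 RNA sample, read on its own Affymetrix Mouse Genome 430 2.0 array, a 3' expression platform. A single array stands for each group, so no difference below has a replicate check or a test. The only spread available is the disagreement among probe sets of one gene, which leaves out culture, animal and array. How many mice gave the cells, and whether both samples came from the same mice, is not stated in the labels, and the serum in the medium was common to both groups.

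Values are signals in array units. Signals of 81 genes typical of unrelated tissues, on 140 probe sets, had a 90th percentile of 143 units, which served as the background level. On the control array 41.9% of all probe sets exceeded it, and with CSF1 40.3%. Of the macrophage markers 11 of 11 were above it on both arrays, with summed signals of 185492 units without CSF1 and 162139 units with it. All 8 fibroblast markers were also above it, with sums of 52311 and 66088 units, and each had a higher signal on the CSF1 array on its brightest probe set. The T and NK cell markers Thy1 and Cd3g stood at 734 and 419 units on the control array and at 698 and 408 units on the CSF1 array. Cd3d went the other way, from 295 to 375 units, and of the 5 measured markers of this list 4 were lower and 1 higher. The mast cell markers Cpa3 and Cma1 went from 1421 and 747 units to 1236 and 560 units, and of the 5 measured in their list 4 were lower and 1 higher. In the neutrophil list Mmp8 went from 2969 to 1412 units with CSF1, 2.10-fold lower, Csf3r from 1282 to 623 units, 2.06-fold lower, and S100a8 from 4838 to 5487 units, with S100a9, Cxcr2, Ltf, Camp, Elane and Mpo below background. The dendritic cell marker Zbtb46 went from 318 to 144 units, 2.20-fold lower, with the value on the CSF1 array barely above background. Of the other lists, at least 1 array was above background for 2 of 7 dendritic cell, 1 of 5 eosinophil, 4 of 6 B cell and 3 of 6 mesothelial markers. The 3' to 5' signal ratio, a sign of RNA integrity, was 1.35 for Actb on the control array and 1.38 on the other, and for Gapdh 1.03 and 1.40. Its part in the values below was not tested.

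Of the 25 probe sets, 21 were above background on both arrays, 2 without CSF1 only and 2 on neither. In the signals as deposited, the receptor, its ligand Csf1, Gab2 and Pik3r1 were lower on the CSF1 array on each of their measured probe sets. Inpp5d had higher signals on both of its probe sets. For Grb2, Ptpn6 and Cbl the probe sets disagreed in direction, and Il34 was not above background. In all, 16 of the 21 probe sets above background on both arrays were lower and 5 were higher, whereas 50.6% of the 15388 probe sets above background on both arrays were lower.

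**Figure D1:**
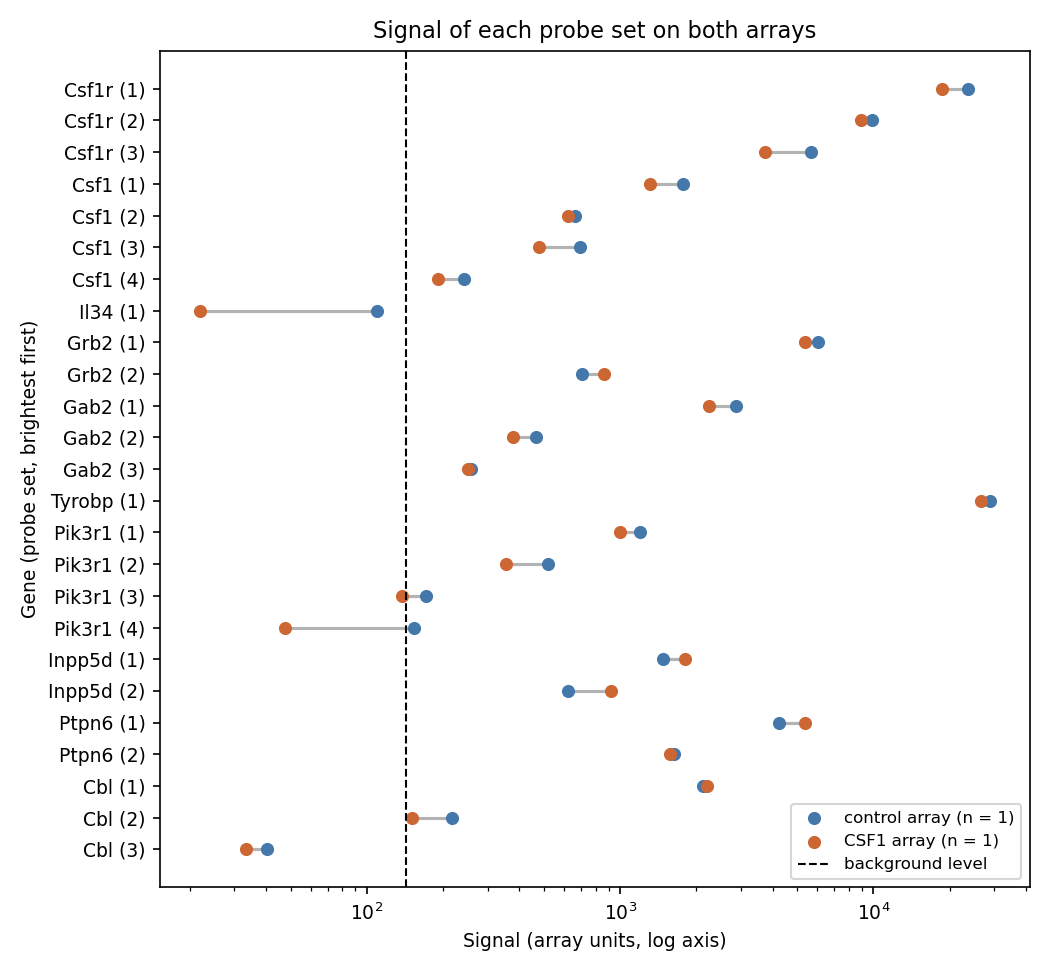
Signal of each of the 25 probe sets of the 10 genes on the control array (blue) and the CSF1 array (orange), in array units on a log axis, with the background level of 143 units as a dashed line and probe sets of a gene ordered by signal. Most orange points lie to the left of the blue ones, except for both Inpp5d probe sets, the brightest of Ptpn6 and of Cbl, and the second of Grb2.

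No probe set of these genes was 2-fold different. Among all 18164 measured probe sets, those above background on at least 1 array, 0.941% were higher by 2-fold or more and 0.881% were lower by as much, so a count of 0 among 23 measured probe sets is near what that background gives. At 1.5-fold, 1 of the 23 was lower and 0 were higher, beside 6.15% and 5.76% of all measured probe sets. Taking the brightest probe set of each gene, 6 of 9 measured genes were lower and 3 higher, with ratios from 1.34-fold lower to 1.26-fold higher. Of all measured genes 0.915% were higher by 2-fold or more and 0.705% lower, and of these 9 none was. Their median log2 ratio was -0.17, beside 0.00 over all 10927 measured genes.

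The signals of Csf1r were 23704 units without CSF1 and 18697 units with it for probe set 1419872_at. For 1419873_s_at they were 9873 and 8950 units, and for 1423593_a_at 5669 and 3740 units. All 3 probe sets were thus lower with CSF1, but by different amounts. Their log2 ratios were -0.34, -0.14 and -0.60, a mean of -0.36 ± 0.23 (SD between 3 probe sets), or 1.28-fold lower. The last of these, 1.52-fold lower, was the single probe set past 1.5-fold. The names ending in _s_at and _a_at mark probe sets that can match more than 1 transcript, which may be forms of the same gene.

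The brightest Csf1r probe set lies in a range of signal where most probe sets were lower on the CSF1 array. Among the 770 probe sets in the top 5% by mean signal, 69.4% were lower, with a median of -0.09. Among the 239 within 0.5 log2 units of the mean signal of 1419872_at, the median was -0.15 and the 10th to 90th percentiles ran from -0.31 to 0.05, so the value of -0.34 was just under this band. For 1423593_a_at the band of like signal ran from -0.26 to 0.30, and its -0.60 was far below it, whereas 1419873_s_at lay inside its band. With quantile normalization the brightest Csf1r probe set stood at -0.21 and with the loess correction also at -0.21. The size of the difference on this probe set was thus partly set by the scaling. Under the same 2 scalings 1423593_a_at stood at -0.62 and -0.61, and 1419873_s_at at -0.12 and -0.09.

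Macrophage markers differed among themselves in these bulk samples, in which fewer cells of a type and less RNA per cell cannot be told apart. Of the 11 markers 8 were lower, with a median log2 ratio of -0.11. Mertk, a receptor for apoptotic cells, had the lowest log2 ratio at -0.75, followed by the phagocyte genes Cd68 at -0.42 and Lyz2 at -0.37 and by Lgals3 (galectin-3) at -0.30. Cd68, Lyz2 and Lgals3 are so bright that the median of probe sets of like signal was itself near -0.24. The integrin gene Itgam stood at -0.21, Adgre1 (F4/80) at -0.11 and the Fc receptor gene Fcgr1 at -0.03. Among scavenger and pattern receptors, Msr1 had 17426 and 17420 units, Cd14 a log2 ratio of 0.05, Mrc1 0.16 and Marco 0.72. The part of cell composition in the Csf1r value was not tested.

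**Figure D2:**
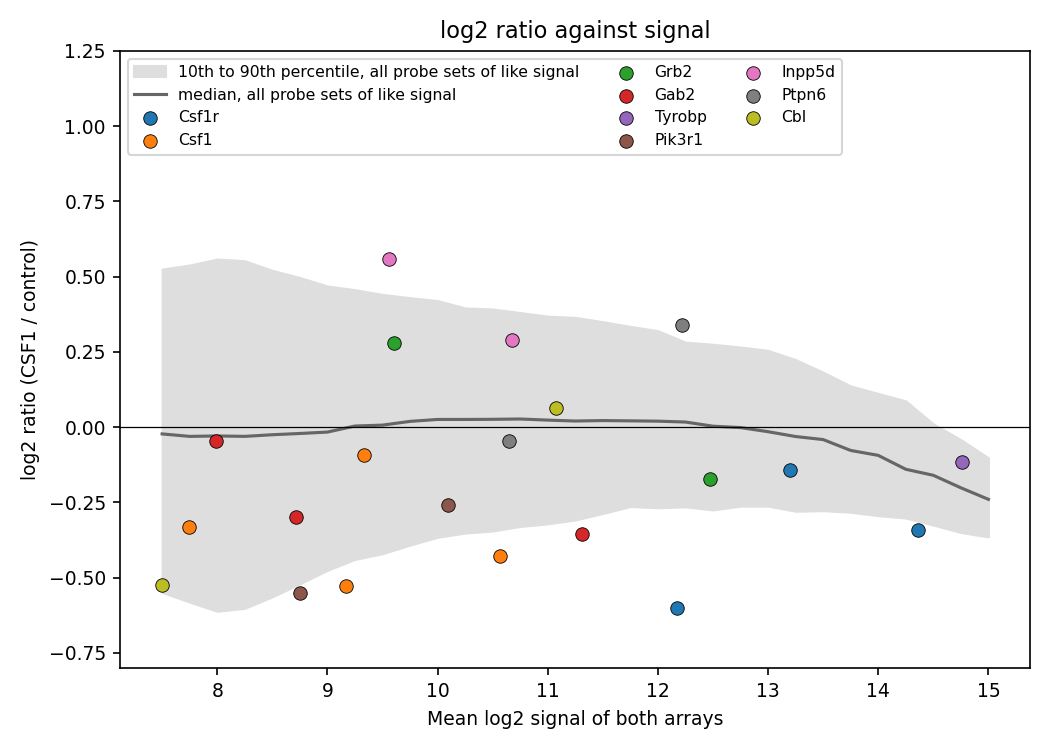
log2 ratio (CSF1 over control) of the 21 probe sets above background on both arrays against their mean log2 signal, coloured by gene; the grey band spans the 10th to 90th percentile and the line the median of all probe sets within 0.5 log2 units. The line bends below 0 at high signal, and the least bright Csf1r probe set at -0.60 and the bright Ptpn6 probe set at 0.34 stand outside the band.

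Csf1 is the ligand that many tissues supply to macrophages, fibroblasts among its sources. Probe set 1460220_a_at read 1762 units without CSF1 and 1311 units with it. The signals of 1425154_a_at were 665 and 623 units, and those of 1448914_a_at 692 and 480 units. The dimmest, 1425155_x_at, read 241 and 191 units. All 4 were lower on the array of CSF1-treated cells, with log2 ratios of -0.43, -0.09, -0.53 and -0.33 in that order and a mean of -0.35 ± 0.19 (SD between 4 probe sets). The first and the third lay below the 10th percentile of probe sets of like signal, and the other 2 inside their bands. All 4 have names that mark possible matches to more than 1 transcript, which may be forms of Csf1 itself. No value of Csf1 from unmarked probe sets therefore exists. On their brightest probe sets the fibroblast markers given above had a median log2 ratio of 0.31, opposite in sign to Csf1. Over 2 probe sets each, Col1a1 had a mean of -0.06 ± 0.26 and Pdgfra -0.13 ± 0.63 (SD between 2 probe sets). By the same measure Col1a2 stood at 0.20 and Col3a1 at 0.58. The part of these markers in the Csf1 value was not tested.

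The promoter sequence of Csf1 is shown because this was the gene with the lowest ratio on its brightest probe set. These are the 250 bases before the RefSeq transcription start on GRCm38.p6 (chr3:107760470-107760719, minus strand), written 5′ to 3′. Capitals mark matches to GGGCGG, the GC box that Sp1-type factors bind, on either strand.
Csf1: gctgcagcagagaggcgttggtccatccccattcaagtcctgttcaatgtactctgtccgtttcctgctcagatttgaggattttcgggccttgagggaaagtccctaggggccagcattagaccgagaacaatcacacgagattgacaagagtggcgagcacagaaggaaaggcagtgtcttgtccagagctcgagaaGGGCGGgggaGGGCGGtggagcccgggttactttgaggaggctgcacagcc
The motif occurs 2 times here, and 32.7% of 32851 RefSeq promoter windows of the same length hold it. Neither GAGGAA nor TATAAA was found in this window. A match is one of letters, and no binding was measured.

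Il34 encodes the other ligand of the receptor, which keratinocytes and neurons are known to make. Its single probe set, 1431920_a_at, read 109 units without CSF1 and 21.9 units with it. Both are below the background level, so no fold is given. Of the proteins that process the receptor and ligands, the sheddase gene Adam17 had a log2 ratio of -0.11 and Adam10, another membrane sheddase, -0.32. Furin, a proprotein convertase, stood at 375 units without CSF1 and 673 units with it, 1.79-fold higher on its single measured probe set. Ptprz1, an alternative receptor of interleukin-34, was below background, and the group of 7 shedding and co-receptor genes had 4 higher and 2 lower among 6 measured.

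Grb2 is the small adaptor that couples phosphorylated receptors to the Ras activator Sos. Its probe set 1449111_a_at read 6038 units without CSF1 and 5356 units with it, and 1418508_a_at read 709 and 860 units. These disagree in direction, at -0.17 and 0.28, and both lay inside the bands of like signal. Their mean of 0.05 ± 0.32 (SD between 2 probe sets) gives Grb2 no direction.

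Gab2 is a docking protein that recruits PI3K once phosphorylated. The signals of 1419829_a_at were 2868 units without and 2242 units with CSF1. Those of 1439786_at were 466 and 379 units, and those of 1420785_at 258.5 and 250.2 units. All 3 were lower, the brightest by the largest amount, with log2 ratios of -0.36, -0.30 and -0.05 and a mean of -0.23 ± 0.16 (SD between 3 probe sets). The brightest lay below its band of like signal, from -0.30 to 0.36.

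Tyrobp (DAP12) had 1 probe set, 1450792_at, at 28902 units without CSF1 and 26636 units with it. It was 1.09-fold lower, with a log2 ratio of -0.12, although the median of the 157 probe sets of like signal was -0.20. Its sign depended on the scaling: the log2 ratio became 0.08 with quantile normalization, 0.05 with loess and 0.18 with centring on the hybridisation spikes. A list of 12 genes held receptors that pair with Tyrobp, related receptors that need not do so, and related adaptors. Of these 10 were measured, 7 higher and 3 lower, with a median of 0.08. Trem2, a lipid-sensing receptor of macrophages that signals through Tyrobp, stood at -0.02, and Cd300lb, an activating receptor of myeloid cells, had the highest ratio of those above background on both arrays at 0.27, against Klrk1 (NKG2D) with the lowest at -0.08.

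Pik3r1 encodes p85α, the regulatory subunit that brings PI3K to phosphorylated tyrosines, and shorter forms of it. Probe set 1438682_at read 1200 units without CSF1 and 1002 units with it, and 1425515_at read 521 and 355 units. The dimmer 1425514_at read 172 and 138 units, and 1451737_at read 154 and 47.5 units, which put both under background on the CSF1 array. All 4 probe sets were lower with CSF1. The pair measured on both arrays had log2 ratios of -0.26 and -0.55, a mean of -0.41 ± 0.21 (SD between 2 probe sets), and the dim pair were at least 1.20-fold and at least 1.07-fold lower. At a stricter background of 193 units, the 95th percentile of the unrelated genes, the dim pair was not above background on either array.

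RefSeq lists 2 promoter windows for Pik3r1 on GRCm38.p6. They are shown because its probe sets were lower together and the windows differ in composition. Each is the 250 bases before a start, 5′ to 3′, the first at chr13:101768218-101768467, minus strand, and the second at chr13:101692631-101692880, minus strand. Capitals mark GGGCGG and TATAAA on either strand, with no overlap between them.
Pik3r1 upstream start: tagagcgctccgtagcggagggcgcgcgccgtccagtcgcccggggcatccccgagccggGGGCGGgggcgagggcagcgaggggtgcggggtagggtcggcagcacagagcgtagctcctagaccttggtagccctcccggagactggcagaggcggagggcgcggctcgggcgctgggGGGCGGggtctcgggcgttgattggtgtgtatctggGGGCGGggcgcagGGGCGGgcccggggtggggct
Pik3r1 downstream start: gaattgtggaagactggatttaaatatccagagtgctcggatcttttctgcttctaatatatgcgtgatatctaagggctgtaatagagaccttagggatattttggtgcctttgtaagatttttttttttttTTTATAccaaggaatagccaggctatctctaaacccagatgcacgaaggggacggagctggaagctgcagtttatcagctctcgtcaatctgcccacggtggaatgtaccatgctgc
The window of the upstream start is 76.4% G and C and holds 4 matches to GGGCGG. That of the downstream start is 42.4% G and C and holds 1 match to TATAAA, which occurs in 12.4% of all windows. Which start each probe set reports was not determined here.

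Other PI3K pathway genes went both ways, with 10 of 20 measured higher and 10 lower and a median of 0.00. A second regulatory subunit gene, Pik3r2, was the lowest, with 431 units without CSF1 and 228 units with it, 1.89-fold lower. Of the complex that restrains mTOR, Tsc1 was 1.66-fold lower and Tsc2 1.52-fold higher, the latter on a probe set that can match several transcripts. Each of these 3 genes had a single probe set above background on both arrays, so none has a spread.

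Inpp5d (SHIP1) was the one gene with higher signals on all measured probe sets. Probe set 1418110_a_at read 1480 units without CSF1 and 1809 units with it, and 1424195_a_at read 621 and 916 units. Their log2 ratios were 0.29 and 0.56, a mean of 0.42 ± 0.19 (SD between 2 probe sets), or 1.34-fold higher. The larger value lay above the band of like signal, which ended at 0.44, and the smaller inside its band. Both kept their sign under all 4 other scalings. Centring on the median or the spikes raised every ratio, so only the quantile and loess scalings could have changed it. Both names mark possible matches to several transcripts, which may be forms of the same gene.

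Ptpn6 (SHP-1), the phosphatase mutated in motheaten mice, had discordant probe sets. Probe set 1460188_at read 4244 units without CSF1 and 5367 units with it, while 1456694_x_at read 1629 and 1576 units. The first had a log2 ratio of 0.34, above its band of like signal, and the second -0.05, for a mean of 0.15 ± 0.27 (SD between 2 probe sets). The unmarked probe set is the one with the higher signal on the CSF1 array; the other is of the _x_at kind, which can cross-hybridise.

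Both phosphatase promoters are shown because the brightest probe set of each was higher with CSF1, unlike those of the receptor, Csf1, Gab2 and Pik3r1. The windows are the 250 bases before the RefSeq start on GRCm38.p6, 5′ to 3′, at chr1:87620062-87620311, plus strand, for Inpp5d and chr6:124738710-124738959, minus strand, for Ptpn6. Capitals mark GAGGAA, a core that ETS factors such as PU.1 bind, and GGGCGG, on either strand; 2 of the GGGCGG matches of Ptpn6 overlap each other.
Inpp5d: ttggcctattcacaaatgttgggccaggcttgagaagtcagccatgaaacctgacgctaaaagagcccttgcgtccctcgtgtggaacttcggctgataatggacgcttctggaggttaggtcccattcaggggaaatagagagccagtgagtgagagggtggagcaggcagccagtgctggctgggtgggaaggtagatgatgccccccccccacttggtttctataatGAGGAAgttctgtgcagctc
Ptpn6: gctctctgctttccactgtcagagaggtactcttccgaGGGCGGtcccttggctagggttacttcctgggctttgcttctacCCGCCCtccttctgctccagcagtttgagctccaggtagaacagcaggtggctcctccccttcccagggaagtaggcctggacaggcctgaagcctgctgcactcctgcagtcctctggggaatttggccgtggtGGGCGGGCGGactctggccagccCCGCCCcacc
The Inpp5d window holds 1 GAGGAA and 0 GGGCGG, and the Ptpn6 window 0 and 5. GAGGAA occurs in 23.3% of all windows. The pair thus shared neither motif. The brightest probe set of Cbl was also higher, at 0.06, and its window, not printed, held 1 GAGGAA and 3 GGGCGG.

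Cbl is the ubiquitin ligase that marks activated Csf1r for degradation. Its probe set 1434829_at read 2114 units without CSF1 and 2209 units with it, 1450457_at read 217 and 151 units, and 1455886_at was below background with 40.2 and 33.2 units. The measured pair disagreed, at 0.06 and -0.52, for a mean of -0.23 ± 0.42 (SD between 2 probe sets), and both lay inside their bands of like signal. The dimmer of the pair was near background with CSF1, and at the stricter background of 193 units its log2 ratio had only an upper bound, -0.17. The related ligase gene Cblb had a log2 ratio of 0.45 on its brightest probe set and 0.30 ± 0.52 over 3.

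**Figure D3:**
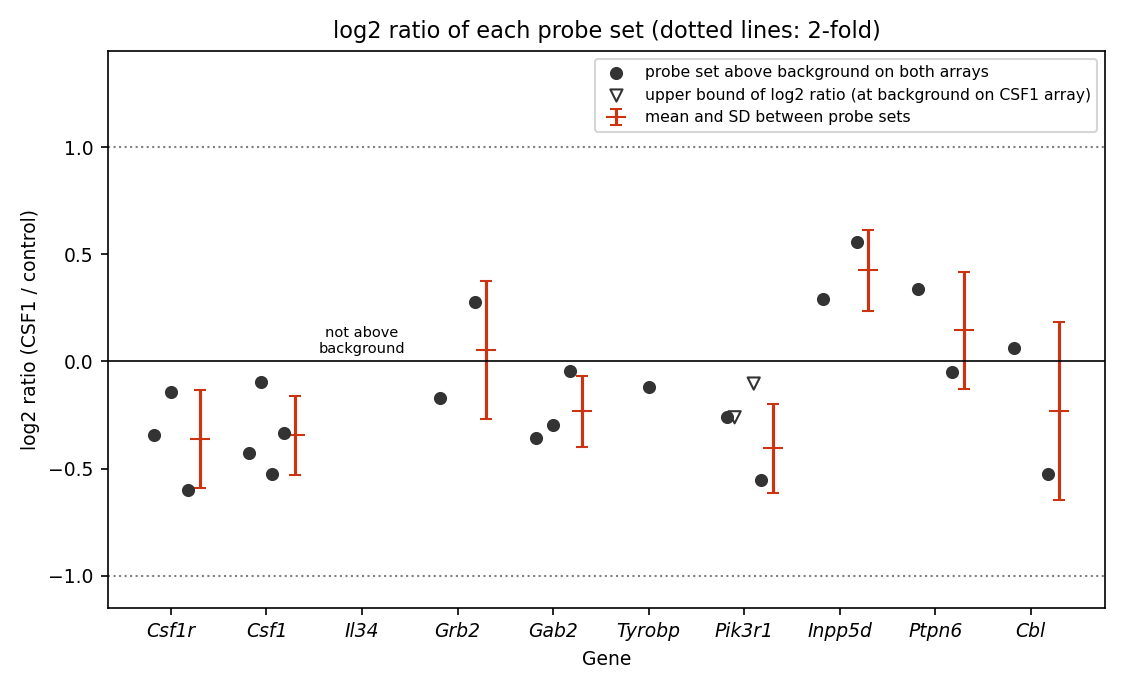
log2 ratio (CSF1 over control) of each measured probe set by gene, with the mean and SD between probe sets beside genes that have at least 2 above background on both arrays; open triangles are upper bounds for Pik3r1, and dotted lines mark 2-fold. Csf1r, Csf1, Gab2 and Pik3r1 lie below 0 on every probe set and Inpp5d above it, while Grb2, Ptpn6 and Cbl straddle it.

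In all, 8 of the 21 probe sets lay outside the 10th to 90th percentiles of probe sets of like signal, a range that holds 80% of them by construction. The 6 below it belonged to Csf1r, Csf1, Gab2 and Pik3r1, and the 2 above it to Inpp5d and Ptpn6. Probe sets of one gene report the same RNA and are not independent, so these are descriptions of the 2 arrays.

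On the brightest probe set of each gene, Ptpn6 and Inpp5d had the highest ratios and Csf1 the lowest under each of the 5 scalings tried. Centring on the median or the spikes cannot change this order, so only the quantile and loess scalings could have altered it. By the mean over probe sets as deposited, Inpp5d was highest at 0.42 and Pik3r1 lowest at -0.41. The Pik3r1 mean left out its dim pair, which fell under background with CSF1. When the bounds of that pair were counted, Pik3r1 stood at -0.29 and Csf1r was lowest at -0.36. Centring on the 18 hybridisation spikes, control RNAs added before hybridisation, put the median of all measured genes at 0.28 and raised each gene alike, so that Csf1r stood at -0.05, Pik3r1 at 0.04, Grb2 at 0.12 and Inpp5d at 0.58. Relative to that median, Csf1r was at -0.33 and Inpp5d at 0.30, close to the values as deposited, which a shift common to all genes brings about. Of the 22 probe sets then measured, 10 were lower and 12 higher, with 17 below that median and 5 above it. Csf1r, Csf1, Gab2 and Pik3r1 each then had a probe set that was higher, at 0.15, 0.20, 0.25 and 0.04 in that order.

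**Figure D4:**
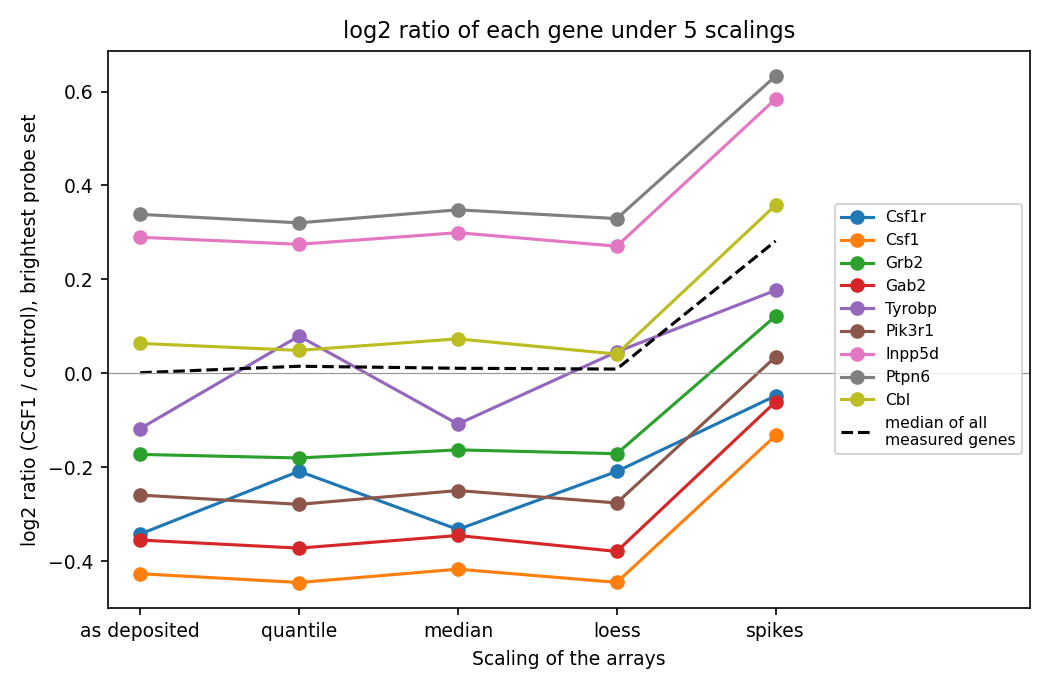
log2 ratio (CSF1 over control) of the brightest probe set of each of the 9 measured genes as deposited and under 4 other scalings, with the median of all measured genes as a dashed line. Ptpn6 and Inpp5d stay on top and Csf1 at the bottom in each, an order that centring on the median or the spikes cannot change. All genes shift upward with the spikes, and Tyrobp changes sign under the quantile and loess scalings and with the spikes.

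Around these genes, 125 of 138 other genes of the pathway had a probe set of their own and 118 were measured. Of these 58 were higher and 60 lower, with a median log2 ratio of -0.02, and none was 2-fold different. At 1.5-fold, 3 were higher and 4 lower, or 2.54% and 3.39%, beside 5.83% and 5.31% of all measured genes. The other 13 were not analysed here.

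Transcription factors that act on the Csf1r gene had the lowest median of the 10 role groups, -0.25, with 6 of 8 lower. PU.1, encoded by Spi1 and needed for Csf1r expression, had 1253 units without CSF1 and 1648 units with it, a log2 ratio of 0.40. Tfec, a factor of the MiT family found in macrophages, was 1.501-fold lower, Mitf stood at -0.43 and the myeloid factor gene Cebpa at -0.33. Cebpb had -0.09 on its brightest probe set and -0.55 ± 0.65 over 2. With the spikes as reference the median of this group was 0.04, which is below the median of all genes under that scaling.

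The 8 measured tyrosine kinase genes had a median of -0.01, with Csk, which restrains Src kinases, lowest at -0.42 and the focal adhesion kinase relative Ptk2b highest at 0.30; Syk, which binds phosphorylated Tyrobp, stood at 0.04. Among 14 adaptors the median was 0.06, from -0.31 for Sla, a negative regulator of receptor signalling, to 0.36 for Sh2b3 (LNK). In the Ras and MAP kinase cascade 8 of 12 were lower, with a median of -0.07, Braf at -0.41 and Map2k2 at 0.46, the latter with -0.12 ± 0.82 over 2 probe sets. Among 15 phosphatase and ubiquitin genes 10 were lower, with a median of -0.08; Ptpn22 was lowest at -0.42 and Hgs, which sorts ubiquitinated receptors on endosomes, highest at 0.53. Of 7 Jak and Stat genes, Jak2 was lowest at -0.43, Stat5a was highest at 0.19, and the median was 0.00.

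Actin regulators had a median of 0.04 over 18 genes, with 1 gene past 1.5-fold in each direction. Pstpip1, an adaptor that binds the actin regulator WASP, had 1009 units without CSF1 and 1987 units with it, 1.97-fold higher on its single measured probe set. Its relative Pstpip2, an F-BAR protein phosphorylated downstream of Csf1r, had a log2 ratio of -0.49, with -0.47 ± 0.12 over 3 probe sets. On its brightest probe set Wasl (N-WASP) was 1.70-fold lower, but it had a mean of -0.11 ± 0.92 over 2, and Was itself stood at 0.54.

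**Figure D5:**
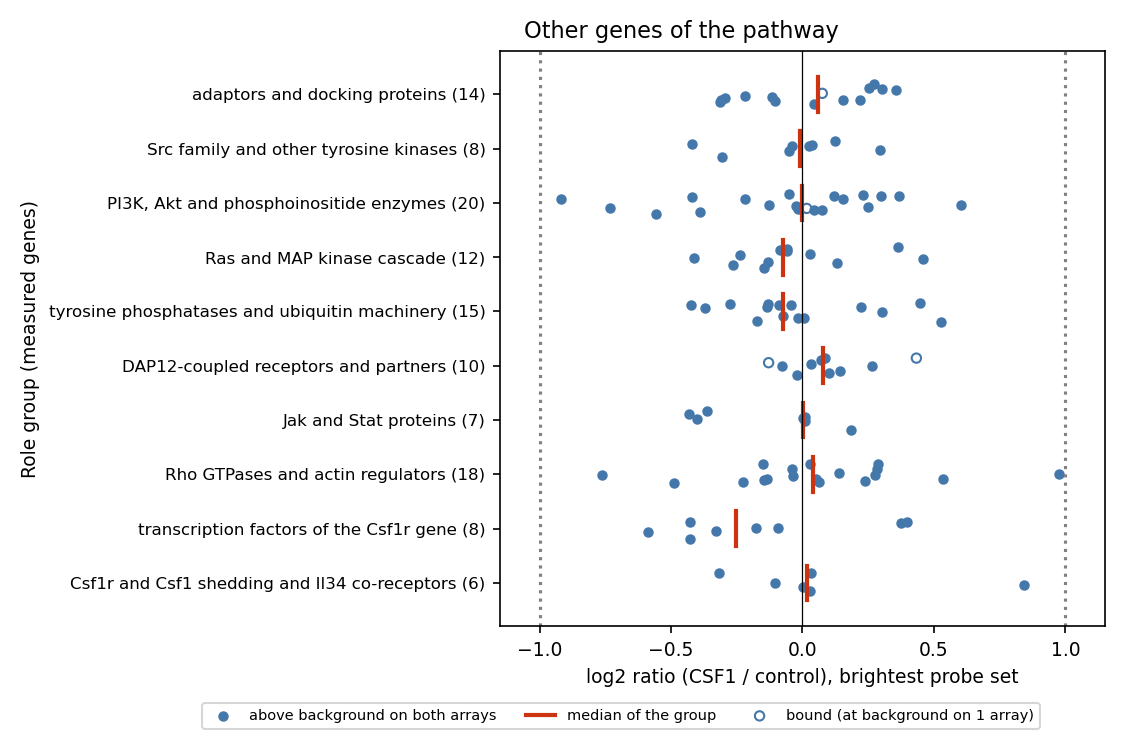
log2 ratio (CSF1 over control) of the brightest probe set of the 118 other measured genes of the pathway by role group, with group medians as red bars, bounds as open circles and 2-fold as dotted lines. All points lie within 2-fold, and the group of transcription factors of Csf1r has its median at -0.25 while the other medians lie between -0.08 and 0.08.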

How the data were processed

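The labels assign 1 array to each group. Signals were deposited as linear intensity, which the authors produced with GeneSpring 6.2 per the series' design text; the probe summarization is not stated there. After trimming 2% from each end, the mean was 500.003 units on both arrays. Of 45101 probe sets, 34958 carried 1 gene symbol, 932 several and 9211 none, by the platform's annotation; only the first were used. All 10 members had a probe set, and none had one under an older symbol.

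Values were taken to log2 without further scaling, and CSF1 was compared with control as a log2 ratio. Signals under the background level of 143 units were raised to it, and the fold is then a bound. Background genes were 81 of 90 fixed genes of unrelated tissues that had a probe set, among which Mbp and Cela1 exceeded the level well. A gene was represented by its probe set of highest mean log2 signal. The pooled SD between probe sets was 0.29 over 3763 genes. No test or p-value between groups was possible. The members and lists were chosen with earlier results of these data known. Named were all members, in each role group the highest and lowest ratio above background on both arrays and genes past 1.5-fold, and up to 3 markers of other cell types; Syk, Trem2, Adam17, Ptprz1, Cblb, Mitf, Cebpa, Cebpb, Pstpip2, Was, and the macrophage markers were added after their values were seen.

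Alternative settings were loess (span 0.3), quantile normalization, centring on the spikes or the median, the background level at the 95th percentile or left out, the mean of measured probe sets, unmarked probe sets and a 1.5-fold threshold. The procedure was tested on simulated data. Promoter windows came from RefSeq (GRCm38.p6). Windows on the chromosome of Csf1r were left out, so none was examined for that gene. After this step 6 of the 10 members had a window, and windows of 4 are printed. Software was Python 3.11.15 with statsmodels 0.14.6, scipy 1.17.1, pandas 2.3.3, numpy 2.4.6 and matplotlib 3.10.9.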

Additional observations from a re-analysis of the deposited data

How the results depend on the processing

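Of 191 recomputed values, 169 moved by less than the pooled SD between probe sets or kept their count, and 22 moved further. Across both kinds, 25 differed in sign from the main setting. Among the 169 these include Tyrobp at 0.08 with quantile normalization and Grb2 at 0.05 as the mean of its probe sets. Part of the 169 was fixed by construction. For a bright gene such as Csf1r, both other background settings and the unmarked probe sets return the same -0.34. Centring on the median shifts all genes alike and only slightly. The count of 169 is therefore no measure of how stable the values are. Centring on the spikes accounts for most of the 22, since it shifts all genes alike and puts the median of all genes at 0.28. Under it the log2 ratios were 0.36 for Cbl, -0.13 for Csf1, -0.048 for Csf1r, -0.061 for Gab2, 0.12 for Grb2, 0.58 for Inpp5d, 0.035 for Pik3r1, 0.63 for Ptpn6 and 0.18 for Tyrobp, and the median of the members was 0.12. Role group medians were then 0.31 for shedding and co-receptors, 0.37 for the Tyrobp-coupled and related receptors, 0.30 for Jak and Stat and 0.22 for the Ras cascade. They were 0.34 for actin regulators, 0.29 for tyrosine kinases, 0.042 for transcription factors and 0.22 for phosphatases and ubiquitin machinery. The mean of its measured probe sets put Cbl at -0.23. With no background level, 2 probe sets and 1 gene of the members were at least 2-fold lower, being Il34 and the dimmest Pik3r1 probe set. With a 1.5-fold threshold, 1 probe set was lower. Probe sets not marked as shared gave no value for Csf1, Grb2, Inpp5d and Il34. No paired analysis was possible because each group has 1 array. The number of arrays limits all values, and signals under 143 units carry no fold.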
